A study of Mus musculus with 12 samples.

Results

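Methylation of lysines in the tail of histone H3 marks where transcription starts, where enhancers act and where RNA polymerase is elongating. The genes described here were 10 members of the mouse Kmt2 family of histone lysine methyltransferases and their functional relatives, Kmt2a, Kmt2b, Kmt2c, Kmt2d, Setd1a, Setd1b, Kmt2e, Setd2, Nsd1 and Ash1l. They were taken as the rows of the expression table whose Ensembl identifiers carry these symbols, 10 of 19268 genes. Kmt2a had come up among the genes most clearly higher in adult than in juvenile Shank3 mutant mice, and the other 9 were listed beside it by family and function. The set was thus chosen by the age difference of Kmt2a in mutant mice, and that difference is given for all 10 genes as a description, with no test.

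RNA came from the forebrain of male C57BL/6J animals, juvenile at postnatal day 25 (P25) or adult at postnatal day 60 (P60). Wild-type (WT) mice were compared with knock-out (KO) mice, which were homozygous mutants that lack internal exons of Shank3, the gene of a postsynaptic scaffold protein. Each of the 4 groups P25-WT, P25-KO, P60-WT and P60-KO held 3 libraries from separate mice. The labels record no treatment, and each library was 1 bulk sample of forebrain taken without the olfactory bulb, so fewer cells of a type and less RNA per cell cannot be told apart. Values are normalized counts, that is, read estimates per gene that were divided by factors for library size and transcript length. The sum over genes ranged from 30568259 to 32348554 per library. The reads behind each value are unknown, so precision rests on the 3 libraries per group.

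The labels were checked first. Shank3, the targeted gene, stood at 10779 ± 786 normalized counts in P25-WT and 5174 ± 481 in P25-KO mice, and at 9796 ± 749 in P60-WT and 4914 ± 339 in P60-KO mice (SD, n = 3), so that KO mice retained 48.0% of it at P25 and 50.2% at P60. All 7 forebrain markers, among them Emx1 and Tbr1, were in the table, and their summed level was from 8867 to 10523 per library, against 121 to 512 for hindbrain and cerebellar markers. P25-WT replicate 2 stood apart from the other libraries for the methyltransferase genes, since it gave the lowest of the 12 values for 10 of 10 of them. The mean deviation of the 10 genes from their own means was -0.35 on the log2 scale in that library and from -0.13 to 0.14 in the other 11. It was also the lowest of the 6 P25 libraries for 29.4% of 17594 genes, and for 63.5% of the 1853 genes whose longest transcript was at least as long as the shortest among the 10. The results that turned on it are given with and without it.

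As background, the 6 active enzymes of the Kmt2 family fall into pairs of paralogs that methylate lysine 4 of histone H3 (H3K4), each within a large complex built on a shared core of Wdr5, Rbbp5, Ash2l and Dpy30. Kmt2a and Kmt2b bind the adaptor menin and trimethylate H3K4 at selected promoters. Kmt2c and Kmt2d monomethylate H3K4 at enhancers, and Setd1a and Setd1b place most of the H3K4 trimethylation at active promoters. Kmt2e shares the family's SET domain but has no established methyltransferase activity. Setd2 trimethylates H3K36 behind elongating RNA polymerase, Nsd1 dimethylates H3K36, and Ash1l also methylates H3K36. Mutations in the human counterparts of several of these genes cause neurodevelopmental disorders, such as Kabuki syndrome (KMT2D) and Sotos syndrome (NSD1).

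The 10 genes are spread over 6 chromosomes of GRCm38. Kmt2a (ENSMUSG00000002028) lies at chr9:44803355-44881296 on the minus strand, Kmt2b (ENSMUSG00000006307) at chr7:30568858-30588726 on the minus strand, Kmt2c (ENSMUSG00000038056) at chr5:25271798-25498783 on the minus strand and Kmt2d (ENSMUSG00000048154) at chr15:98831669-98871204 on the minus strand. Setd1a (ENSMUSG00000042308) lies at chr7:127776670-127800122, Setd1b (ENSMUSG00000038384) at chr5:123142193-123168629 and Kmt2e (ENSMUSG00000029004) at chr5:23434441-23504235, all on the plus strand. Setd2 (ENSMUSG00000044791) lies at chr9:110532597-110618633, Nsd1 (ENSMUSG00000021488) at chr13:55209782-55318325 and Ash1l (ENSMUSG00000028053) at chr3:88950622-89079375, also on the plus strand. Their longest transcripts were from 6487 bases (Setd1a) to 19823 bases (Kmt2d), and all 10 belonged to the 20% of tested genes with the longest transcripts.

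Despite their shared SET domains, the paralogs had few short words of sequence in common. The share of 31-base words of a gene's transcripts that also occur in another gene was at most 2.42% (Kmt2d) in 9 of the 10. The exception was Setd1a, in which 51.8% of the words also occur in other genes, most of them in the overlapping same-strand gene Gm49388. Its values are therefore uncertain. Every gene but Kmt2b and Kmt2d overlaps at least 1 other annotated gene. Kmt2e overlaps the coding gene Srpk2 and Ash1l overlaps Dap3 on the opposite strand, and Kmt2a overlaps an antisense gene on the opposite strand and an unclassified same-strand gene. The sources used here do not say whether counting used strand, so reads of such neighbours, Kmt2a included, may not be separated.

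Promoters from RefSeq (GRCm38.p6) were at hand for 5 of the 10 genes. The 250 bases upstream of the start are shown for Kmt2a, which had the largest age difference of the 10, and for the paralogs Kmt2c and Kmt2d, whose ratio differed between the ages. Each is written 5′ to 3′ along the gene's strand, and capitals mark every CG dinucleotide. They cover chr9:44881290-44881539, chr5:25498784-25499033 and chr15:98871206-98871455 in this order, all on the minus strand.
Kmt2a: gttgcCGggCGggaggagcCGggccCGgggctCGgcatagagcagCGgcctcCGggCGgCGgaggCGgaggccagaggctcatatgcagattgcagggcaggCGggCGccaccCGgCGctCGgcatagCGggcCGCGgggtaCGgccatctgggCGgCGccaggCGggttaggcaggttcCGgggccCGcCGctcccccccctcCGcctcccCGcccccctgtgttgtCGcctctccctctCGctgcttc
Kmt2c: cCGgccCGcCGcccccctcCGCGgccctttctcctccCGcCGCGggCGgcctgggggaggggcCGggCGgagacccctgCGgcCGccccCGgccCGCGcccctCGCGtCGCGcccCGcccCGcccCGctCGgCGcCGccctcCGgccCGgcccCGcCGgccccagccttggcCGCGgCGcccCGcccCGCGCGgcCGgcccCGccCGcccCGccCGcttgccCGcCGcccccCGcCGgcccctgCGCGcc
Kmt2d: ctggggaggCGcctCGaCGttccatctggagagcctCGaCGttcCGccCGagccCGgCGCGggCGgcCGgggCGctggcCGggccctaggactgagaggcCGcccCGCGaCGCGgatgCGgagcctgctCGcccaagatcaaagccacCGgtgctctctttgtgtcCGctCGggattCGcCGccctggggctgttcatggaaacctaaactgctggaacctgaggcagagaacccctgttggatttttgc
These windows held 29, 48 and 26 CG dinucleotides, and those of Setd1a and Setd2 held 25 and 31. The Setd1a window, chr7:127777139-127777388, lies upstream of the start that RefSeq gives but inside the gene as placed above, where GENCODE sets the start earlier. The median over 32841 promoter windows of the same length was 6, and 10.7% of them held at least 25. The letters GGGCGG or their reverse complement CCGCCC, the core of a GC box, occurred 4 times in Kmt2a, 12 times in Kmt2c, 4 times in Kmt2d, 7 times in Setd2 and 0 times in Setd1a, and at least once in 32.7% of all the windows. These counts overlap, since each GC box holds a CG. The motif counts describe letters only.

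Expression of the 10 genes was of the same order when divided by the length of the longest transcript. The mean over 12 libraries per kilobase of transcript was 468 normalized counts for Kmt2e, 437 for Ash1l, 429 for Kmt2a, 403 for Nsd1 and 364 for Setd1a. It was 333 for Kmt2b, 327 for Kmt2d, 289.9 for Setd2, 255 for Kmt2c and 231 for Setd1b. The median over all genes was 158, and the 10 genes lay between percentiles 58.6 (Setd1b) and 75.3 (Kmt2e) of 17580 genes. Kmt2a ranked 5 of 10 in P25-WT and 7 in P25-KO mice, and it ranked 1 in both P60 groups, where its libraries overlapped those of Kmt2e, next in the order. In P60-WT mice the libraries of neighbours in the order did not overlap at 3 places, with Ash1l above Nsd1, Kmt2d above Kmt2c and Setd2 above Setd1b. Each of the other neighbours in that group overlapped. In P25-WT mice only Setd2 and Setd1b were separate from each other, and in P25-KO and P60-KO mice 3 and 4 pairs of neighbours were.

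**Figure D1:**
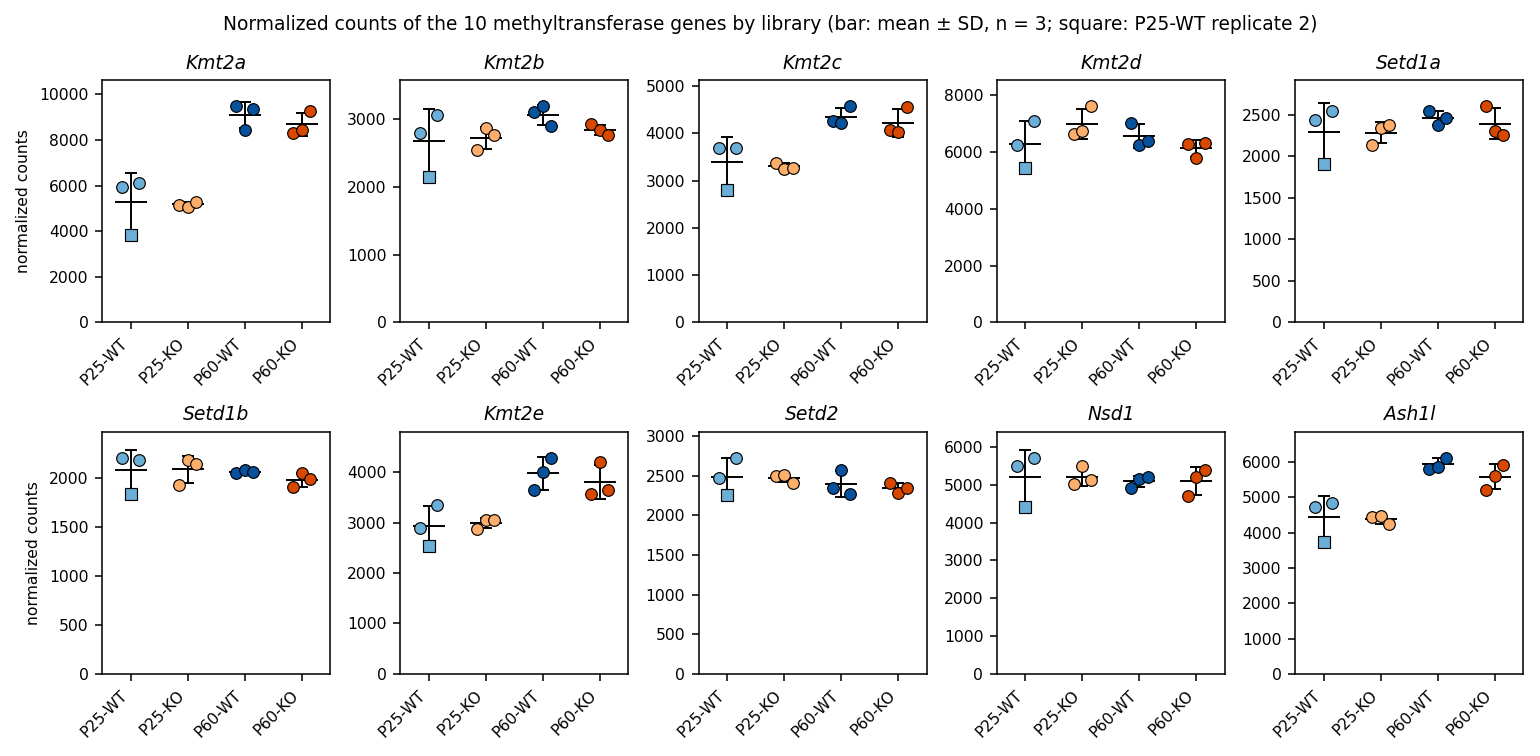
Normalized counts (linear vertical axis from 0) of the 10 methyltransferase genes in each library of the 4 groups, with bars for the mean ± SD (n = 3) and a square for P25-WT replicate 2. The P60 libraries of Kmt2a, Kmt2c, Kmt2e and Ash1l all sit above the P25 libraries, and the square is the lowest point of every panel.

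The comparison of P60 with P25 in WT mice asked which of these transcripts differ between the juvenile and the adult forebrain, in libraries other than those of the age difference that brought up Kmt2a, although results of all libraries were known when the genes were listed. Kmt2a, Kmt2e and Ash1l rose between P25 and P60, by 1.75-fold, 1.36-fold and 1.35-fold. Kmt2c had the same direction at 1.29-fold without passing the threshold. None of the 10 fell. In all, 3 of 10 passed as higher, where 3.66% of the 17581 genes tested were called higher, 4.99% lower and 8.65% in either direction (limma, adjusted p under 0.05). The P60-WT libraries lay wholly above the P25-WT libraries for 4 of 10, against 17.6% of all genes.

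Kmt2a was measured at 5919, 3833 and 6116 normalized counts in the P25-WT libraries and at 9474, 8427 and 9363 in the P60-WT libraries. The lowest adult value was thus above the highest juvenile value. Its log2 fold change was 0.81 ± 0.16 (SE), with an adjusted p of 0.0222 (limma), and it was higher than the change of 97.8% of the genes tested. Kmt2b, its paralog, stood at 2797, 2141 and 3061 at P25 and at 3095, 3186 and 2891 at P60. The Kmt2b groups overlapped, and its log2 fold change of 0.21 had a 95% interval from -0.07 to 0.49.

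Kmt2c stood at 3694, 2792 and 3691 in the P25-WT and at 4254, 4206 and 4571 in the P60-WT libraries. The groups did not overlap, but the log2 fold change of 0.37 ± 0.11 (SE) had an adjusted p of 0.0714 (limma). Kmt2d stood at 6253, 5443 and 7103 at P25 and at 7033, 6263 and 6382 at P60. These groups overlapped, with a log2 fold change of 0.07 and a 95% interval from -0.15 to 0.30. Setd1a and Setd1b, the enzymes of most promoter H3K4 trimethylation, had log2 fold changes of 0.11 (interval -0.14 to 0.36) and -0.00 (interval -0.20 to 0.20), and the groups of both overlapped. Over all 12 libraries Setd1a ranged from 1904 to 2605 normalized counts and Setd1b from 1838 to 2205.

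Kmt2e was measured at 2895, 2539 and 3343 normalized counts at P25 and at 3638, 3998 and 4287 at P60 in WT mice, which do not overlap. Its log2 fold change was 0.45 ± 0.11 (SE), with an adjusted p of 0.0401 (limma). Ash1l stood at 4732, 3731 and 4841 at P25 and at 5808, 5872 and 6125 at P60, again without overlap. Its log2 fold change was 0.43 ± 0.10 (SE), with an adjusted p of 0.0362 (limma). The other H3K36 methyltransferases had smaller values, with Setd2 at -0.05 (interval -0.26 to 0.16) and Nsd1 at -0.03 (interval -0.25 to 0.20). Over all 12 libraries Setd2 ranged from 2249.6 to 2726 normalized counts and Nsd1 from 4421 to 5715, and their age groups overlapped in both genotypes. Over the 10 genes the median log2 fold change was 0.16, and over all genes it was -0.00.

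The calls in WT mice depended on the variance model and on single libraries. With a variance model without the intensity trend, none of the 10 was called, and 192 of all genes were. The adjusted p of Kmt2a, Kmt2e and Ash1l was then 0.0873, 0.114 and 0.110 (limma). Without any 1 of P60-WT replicates 1, 2 and 3, none of the 10 was called, and the adjusted p of Kmt2a was 0.0885, 0.0637 and 0.109 (limma), while its log2 fold change was from 0.78 to 0.86. The number of all genes called fell to 231, 375 and 122 in these fits. Without P25-WT replicate 1 only Kmt2a was called among the 10, and without P25-WT replicate 2 or P25-WT replicate 3 there were 4, with Kmt2c added. The genes called in these fits were 239 (1.36%), 2403 (13.7%) and 2308 (13.1%) of all genes, so the fits with 4 of the 10 also called more of the table. The numbers did not always go together, since without P60-WT replicate 2 there were 375 in the table and none of the 10. Without P25-WT replicate 2, the library with the lowest values, the log2 fold change was 0.59 for Kmt2a (adjusted p 0.000844, limma), 0.35 for Kmt2e (0.0286), 0.31 for Ash1l (0.00614) and 0.23 for Kmt2c (0.0297). The median of the 10 was then 0.02.

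In KO mice, where the difference of Kmt2a chose the genes, the values were as follows and carry no test. Kmt2a stood at 5160, 5071 and 5295 normalized counts in P25-KO and at 8316, 8453 and 9269 in P60-KO libraries, 1.68-fold higher at P60. Kmt2c stood at 3377, 3251 and 3266 at P25 and at 4060, 4019 and 4562 at P60. Kmt2e stood at 2866, 3055 and 3045 at P25 and at 3570, 4200.1 and 3648 at P60. Ash1l stood at 4451, 4468 and 4239 at P25 and at 5218, 5597 and 5928 at P60. The P60 libraries of these 4 genes lay above all P25 libraries, as in WT mice, and 18.9% of 17596 genes did so in KO mice. Kmt2d was the 1 gene of the 10 whose P60-KO libraries, at 6278, 5779 and 6326, all lay below the P25-KO libraries, at 6643, 6732 and 7611, as did 20.5% of all genes. The log2 fold changes of the other 5, Kmt2b, Setd1a, Setd1b, Setd2 and Nsd1, were from -0.07 to 0.06, and their groups overlapped.

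**Figure D2:**
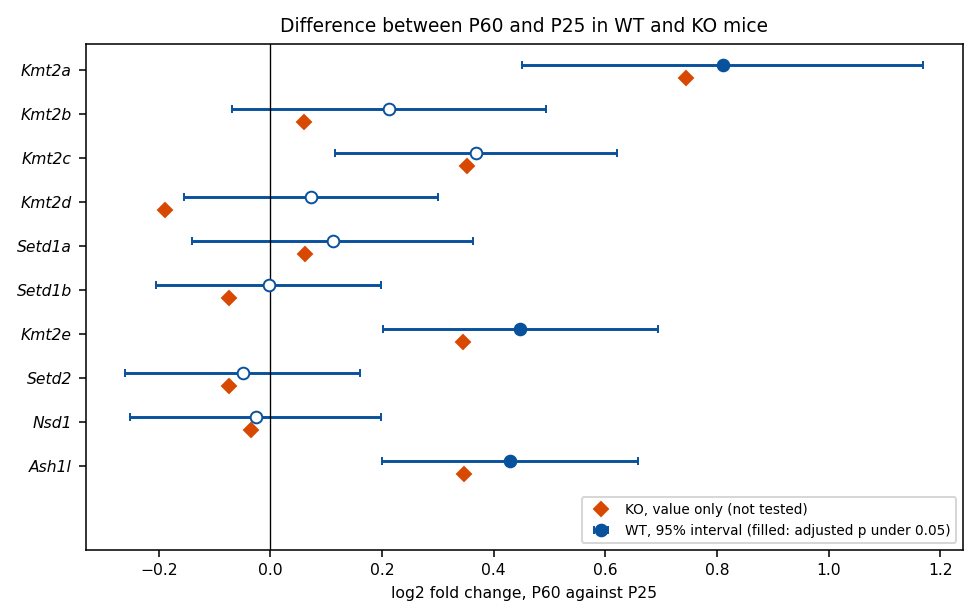
Log2 fold change of P60 against P25 for each gene in WT mice (circles with 95% intervals, filled where the adjusted p was under 0.05) and in KO mice (diamonds, values only). Kmt2a lies farthest to the right in both genotypes, at 0.81 and 0.74, Kmt2c, Kmt2e and Ash1l come next in both, at 0.35 to 0.45, and Kmt2d lies at 0.07 in WT and -0.19 in KO mice.

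Within the paralog pairs, age differences were unequal. The pairs were compared after the values had been seen, so the ratios are given with no test. In KO mice the ratio of Kmt2a to Kmt2b also holds the age difference that chose the genes. The mean log2 ratio of Kmt2a to Kmt2b was 0.97 ± 0.12 in P25-WT, 0.93 ± 0.10 in P25-KO, 1.57 ± 0.15 in P60-WT and 1.61 ± 0.12 in P60-KO mice (SD, n = 3). The lowest P60 ratio, 1.40, was above the highest P25 ratio, 1.08. The mean log2 ratio of Kmt2c to Kmt2d was -0.89 ± 0.11, -1.08 ± 0.13, -0.59 ± 0.12 and -0.54 ± 0.08 in the same order. Its lowest P60 value, -0.73, was also above its highest P25 value, -0.76, by a narrow margin. The ratio of Setd1a to Setd1b was from 0.05 to 0.23 at P25 and from 0.18 to 0.45 at P60, which overlap. These ratios compare genes within a library, so a factor for library size cancels in them. Factors for transcript length need not cancel, and trends on transcript length and GC content bear on the ratios. P25-WT replicate 2 had the lowest ratio of the P25-WT group for all 3 pairs. Without it, the age difference in WT mice was 0.53 in place of 0.60 for Kmt2a to Kmt2b, 0.26 in place of 0.30 for Kmt2c to Kmt2d and 0.07 in place of 0.11 for Setd1a to Setd1b.

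Several properties of the libraries differed between the ages beside these genes, and their part in the results was not tested except where a value is given. Across all genes in WT mice, the median log2 fold change of P60 against P25 went from -0.16 in the 20% of genes with the shortest transcripts to 0.13 in the 20% with the longest, of which 9.28% were called higher. It went from 0.14 in the 20% of genes with the lowest GC content to -0.16 in the 20% with the highest. Kmt2c, Kmt2e, Setd2, Nsd1 and Ash1l belonged to the next to lowest group in GC content, with a median of 0.08, Kmt2a to the middle one, with 0.01, and Kmt2b, Kmt2d, Setd1a and Setd1b to the highest. After the trends on length and GC content were removed from each library, the log2 fold changes were 0.64 for Kmt2a (adjusted p 0.00753, limma), 0.30 for Kmt2e (0.0440), 0.22 for Ash1l (0.0494) and 0.16 for Kmt2c (0.141). Nsd1 was then lower at P60, with -0.23 (0.0370), so 4 of the 10 were called, against 7.17% of all genes. With the replicate number added as a block, Nsd1 and Ash1l were no longer called (0.0684 and 0.0771). Paralogs with GC contents far apart were Kmt2a (50.6%) and Kmt2b (59.1%), and Kmt2c (47.6%) and Kmt2d (58.4%). After trend removal Kmt2b stood at 0.26 and Kmt2d at 0.02, so the age difference in WT mice between Kmt2a and Kmt2b went from 0.60 to 0.39 on the log2 scale and that between Kmt2c and Kmt2d from 0.30 to 0.13.

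**Figure D3:**
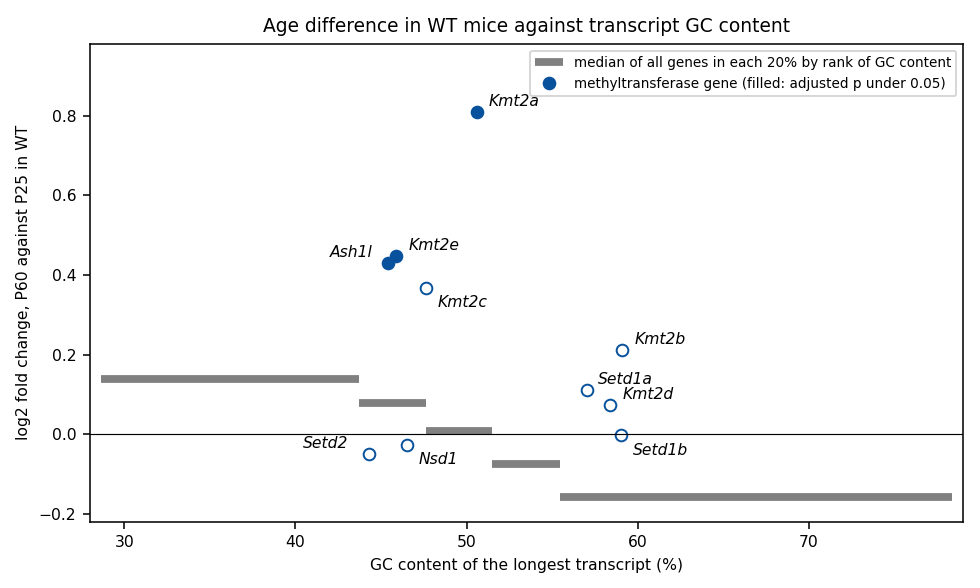
Log2 fold change of P60 against P25 in WT mice against the GC content (%) of the longest transcript, with circles for the 10 genes (filled where the adjusted p was under 0.05) and grey bars for the median of all genes in each 20% by rank of GC content. The grey bars step down from 0.14 to -0.16, and Kmt2a, Kmt2e, Ash1l and Kmt2c lie between 0.37 and 0.81, above every bar.

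Cell type markers also differed with age in WT mice. Here rose or fell means called (limma, adjusted p under 0.05), against 3.66% of all genes higher and 4.99% lower. Oligodendrocyte markers fell in 9 of 10 genes, with a median log2 fold change of -1.33 and a summed level from 444268 to 522151 at P25 and from 197738 to 217234 at P60. In KO libraries the sum was from 403693 to 476204 at P25 and from 202284 to 225712 at P60. Markers of oligodendrocyte precursors fell in 5 of 6 genes (median -0.60), those of blood in 5 of 5 (median -2.11), those of astrocytes in 4 of 9 (median -0.22) and those of glutamatergic neurons in 2 of 8 (median -0.10). A single gene fell for GABA interneurons (median -0.13), striatal projection neurons (0.01), immature and dividing cells (-0.42) and forebrain (0.01). Choroid plexus markers rose in 1 of 5 (median 0.33). Microglia (median -0.23), endothelial (0.08) and hindbrain and cerebellar markers (0.37) had no call. Of 9 long noncoding RNAs retained in the nucleus, 3 rose, Neat1 at 1.66, Snhg14 at 0.83 and Snhg11 at 0.50, and the median of the 9 was 0.32. Their summed level was from 205205 to 294431 in P25-WT and from 309064 to 320499 in P60-WT libraries. In each case the part in the methyltransferase results was not tested.

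The other genes of these pathways were described from fixed lists. None of the 4 core subunits shared by the H3K4 methyltransferase complexes, Wdr5, Rbbp5, Ash2l and Dpy30, was called between the ages in WT mice, with a median log2 fold change of -0.02. None of the 12 subunits particular to one class of complex was called, with a median of 0.05. The same held for 8 other H3K4 and H3K36 methyltransferases (median 0.12), 6 H3K4 demethylases (median 0.03) and 10 methyltransferases of other histone lysines (median -0.01). Among 4 partners of Setd2 and Ash1l, 1 rose, Iws1, which links Setd2 to elongating polymerase, at 0.56 ± 0.09 (SE, adjusted p 0.0104, limma).

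Among the opposing and neighbouring enzymes, calls are set beside the 8.65% of all genes called in either direction. Of 12 demethylases of H3K36 and H3K9, 2 rose, Jmjd1c at 0.52 ± 0.10 (adjusted p 0.0222, limma) and Kdm3a, an H3K9 demethylase, at 0.39 ± 0.10 (0.0424). Among 5 genes of H3K27 methylation, Suz12, a subunit of Polycomb repressive complex 2, rose by 0.38 (adjusted p 0.0344, limma), whereas Ezh2, a catalytic subunit of the same complex that is typical of dividing cells, fell by 0.68 on the log2 scale (0.0392). Among other large chromatin regulators, the remodeller gene Atrx rose by 0.60 (adjusted p 0.0242, limma) and Chd3, also a remodeller gene, fell by 0.30 on the log2 scale (0.0241). The median of the 25 genes on that list was 0.15, close to the 0.16 of the 10 methyltransferase genes.

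The comparison of KO with WT mice asked whether the loss of Shank3 exons went with a change in these enzymes. At P25 and at P60 it shares its KO libraries with the age difference that brought up Kmt2a. Values of Kmt2a within an age are therefore not free of that choice, and their tests carry this limit. None of the 10 was called at P25, at P60 or over both ages, where Shank3 alone was called, 0.00571% of 17515 genes at P25, 0.00568% of 17610 genes at P60 and 0.00568% of 17594 genes over both ages (limma, adjusted p under 0.05). At an unadjusted p under 0.05 there were also 0 of the 10 in each comparison, and 238, 440 and 361 of all genes. Over both ages, with age as a term, log2 fold changes went from -0.05 for Ash1l (95% interval -0.18 to 0.08) to 0.03 for Kmt2d (-0.12 to 0.18), and Kmt2a stood at -0.03 (-0.23 to 0.16). The two-sided exact permutation p, with labels permuted within each age, went from 0.505 for Ash1l to 0.965 for Nsd1, where the smallest possible p was 0.005. The intervals of all 10 genes over both ages lay between -0.23 and 0.18, which are the bounds these 6 mice per genotype gave.

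Within the ages the values reached farther from zero, with wider intervals at P25. At P25 the log2 fold changes of KO against WT were from -0.03 for Kmt2c to 0.16 for Kmt2d, with 6 positive and 4 negative, and no gene had groups that did not overlap, against 4.76% of all genes. Kmt2d, the enhancer methyltransferase with the largest of these values, stood at 6643, 6732 and 7611 normalized counts in P25-KO and 6253, 5443 and 7103 in P25-WT libraries, and its interval was from -0.07 to 0.40. At P60 all 10 values were negative, from -0.11 for Kmt2b to -0.00 for Nsd1, with a median of -0.06 where all genes had 0.00 and the 20% with the longest transcripts had -0.03. Marker lists also lay to one side at P60 without any call. Endothelial markers were negative in 7 of 7 genes (median -0.15) and hindbrain and cerebellar markers in 4 of 4 tested (-0.14). Oligodendrocyte markers were positive in 10 of 10 (0.05) and blood markers in 5 of 5 (0.16). So were forebrain markers (7 of 7, 0.10) and markers of immature and dividing cells (7 of 7, 0.06). At P25 oligodendrocyte markers were negative in 10 of 10 (median -0.13) and blood markers positive in 5 of 5 (0.19). Hindbrain and cerebellar markers were negative there in 4 of 4 tested (-0.22) and microglia markers in 8 of 9 (-0.16). The part of these markers in the genotype values was not tested. Setd1b was the 1 gene whose groups did not overlap at P60, with 1902, 2045 and 1984 in KO and 2046, 2082 and 2060 in WT libraries. Of all genes, 7.79% did not overlap and 3.63% lay wholly lower in KO mice, and the margin for Setd1b was about that of a single normalized count.

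Leaving out P25-WT replicate 2 turned the direction of several genotype differences at P25 but gave no call among the 10. Without it, 9 of the 10 genes were lower in KO mice at P25, with a median log2 fold change of -0.11, where the value with all libraries was 0.01. Over both ages the median became -0.07 from -0.02. Other single libraries also moved these small medians. At P25 the median was -0.01 without P25-KO replicate 2, 0.05 without P25-WT replicate 1 and 0.08 without P25-WT replicate 3, and over both ages it was 0.01 without P25-WT replicate 3. The interaction of genotype and age, which contains the age difference in KO mice, is given as values only. It was negative for 10 of 10 genes with all libraries, from -0.26 for Kmt2d to -0.01 for Nsd1, with a median of -0.07. Without P25-WT replicate 2, a comparison added after the data had been seen, it was positive for 7 of 10, from -0.16 for Kmt2d to 0.15 for Kmt2a, with a median of 0.04. With all libraries none of 17594 genes was called in the interaction, 0%, and 288 had an unadjusted p under 0.05 (limma).

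**Figure D4:**
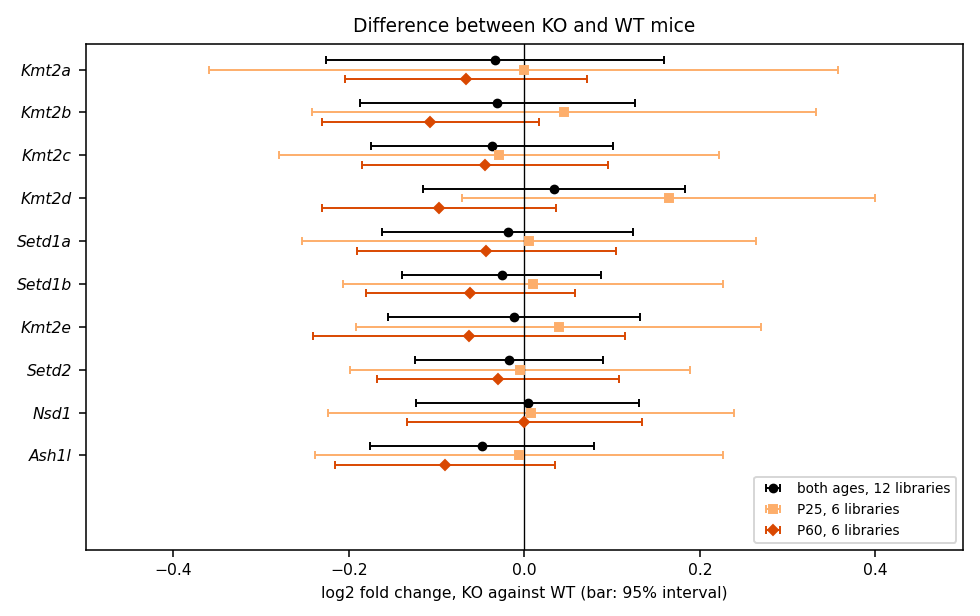
Log2 fold change of KO against WT mice with 95% intervals for each gene, over both ages (12 libraries, circles), at P25 (6 libraries, squares) and at P60 (6 libraries, diamonds). All intervals include zero, those at P25 are the widest, and the P60 values all lie at or to the left of zero.

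Correlations between the 10 genes across libraries are given as a description. Over the 12 libraries the Pearson correlation between pairs of them, on the log2 scale, was from -0.17 to 0.98 with a median of 0.52 (45 pairs). With the group means removed it was from 0.35 to 0.95 with a median of 0.67. Without P25-WT replicate 2 the range over 11 libraries was from -0.55 to 0.97 and the median 0.20, and with the group means removed as well it was from -0.70 to 0.83 and the median 0.07. The pairs share libraries and the scaling of each library, and both medians were lower once that library was left out.

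The genes most like the set were sought by the Pearson correlation over 12 libraries with the mean deviation of the 10 genes, among 14652 genes. The 5 highest were Rab3gap2, a regulator of Rab GTPases, at 0.983, the kainate receptor subunit gene Grik3 at 0.982, Baz2a, a subunit of a nucleolar chromatin remodelling complex, at 0.973, the membrane adaptor gene Pag1 at 0.971 and Mlxip, a glucose-responsive transcription factor gene, at 0.967. All 5 have long transcripts, from 7052 bases for Rab3gap2 to 8973 for Grik3. Without P25-WT replicate 2 their correlations were from 0.912 to 0.969.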

How the data were processed

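Normalized counts were taken from 1 deposited table with 12 libraries (TruSeq RNA Sample Prep Kit v2). The authors quantified transcripts with Salmon 1.1.0 with GC bias correction, summed them to genes with tximport and applied the normalization of DESeq2 (per the labels DESeq2 1.26.0 in R 3.6.2, genome build GRCm38). The deposited signal is on a count scale but not whole, so no count model was fitted and depth is unknown. A reference transcriptome is not given in the sources used here. There were 0 per-sample columns left unused.

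Groups and replicate numbers came from the sample titles. Of 19268 identifiers, 19252 were found in GENCODE M21 (GRCm38), which gave symbols, positions, lengths and GC content. A total of 317 genes were listed at 0 in at least 1 library. Differences were fitted with limma 3.58.1 in R 4.3.3 (intensity trend) on log2(value + 1) over all genes with a mean of at least 10 in the libraries of the fit, which all 10 genes passed. Fold changes are on that scale, and p-values were adjusted by Benjamini-Hochberg over all genes tested. The fits were tested on simulated data. In the simulated age comparison of WT mice (17577 genes), 25.8% of 97 genes changed 1.5-fold and 51% of 98 genes changed 2-fold were recovered, with 3 false calls. The simulation drew each gene on its own, without shifts shared by a library or trends on length and GC content. These rates thus need not hold for the real libraries.

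The 10 genes and all gene lists were chosen with earlier results of these data known. Named genes were the 10 members, Shank3, from each other list the called genes of smallest adjusted p (at most 3 rising and 3 falling), and the 5 genes most correlated with the 10. Neat1, Snhg14 and Snhg11 come from the list of nuclear RNAs. A result of the list of chromatin regulators is not reported here. Alternatives changed the pseudocount, the minimum, the scaling, the variance model and the libraries in the fit, left 1 library out, took the replicate number as a block, or subtracted the trend of each library on transcript length and GC content (a spline each, with 5 degrees of freedom).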

Additional observations from a re-analysis of the deposited data

How the results depend on the processing

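In WT mice, the age difference depended on the settings. The number of the 10 genes called was 3, and it was 0 with a variance model without the intensity trend (192 of all genes called, against 1521) and between 0 and 4 when 1 library was left out (122 to 2403 of all genes). It was 4 with all 12 libraries in one fit (3442 of all genes), 4 after the trends on length and GC content were removed (1261 of all genes) and 3 when libraries were set to equal totals, which moved the split of all calls from 644 higher and 877 lower to 991 and 681. With the replicate number as a block it was 4, with Kmt2c added at an adjusted p of 0.0446 (limma, 1791 of all genes), and with the block and the trend removal together it was 2, Kmt2a and Kmt2e (1089 of all genes). Same-numbered libraries did not deviate together in every pair. The lowest correlation of their deviations was -0.07 for P25-KO with P25-WT, 0.06 for P60-KO with P60-WT, -0.04 between the ages in WT and -0.02 in KO mice, so numbers were not taken as pairs, although 6 of 6 P60 libraries correlated best with their own number, a hint from the data only. The number of the 10 called in KO against WT was 0 under every setting. Of all genes, from 0 to 8 were called at P25, from 0 to 3 at P60 and 1 over both ages. Where no gene was called, Shank3 was missed as well, so the count for the 10 says little. The median of the 10 at P60 in KO against WT was -0.06, became -0.031 after trend removal with or without the block, and was from -0.076 to -0.039 with 1 library left out. In KO mice the median age difference of 0.06 became 0.10 with equal totals and 0.15 after trend removal with or without the block, and was from 0.014 to 0.091 with 1 library left out. With 1 library left out the median at P25 in KO against WT, 0.01, was from -0.11 to 0.08 and that over both ages, -0.02, from -0.07 to 0.01. Without P25-WT replicate 2 the median interaction, given as a value only, went from -0.07 to 0.04. No call with all libraries and the main settings changed direction under an alternative, and Nsd1, called lower only after trend removal alone, was slightly positive under some settings. The causes were not tested.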
